A study of Mus musculus with 16 samples.

Results

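Sperm axoneme and motile cilium genes were followed through mouse spermatogenesis in ATAC-seq peak lists, which give the stretches of open chromatin where the Tn5 transposase inserted most often. The set held 39 listed genes for dynein arms, radial spokes, the central pair, tektins, and docking and regulatory proteins, and 37 of them had a transcription start site (TSS) in the lists, out of 21342 genes in all. Dnah3 and Dnah12, a pair of inner arm dynein heavy chains, were named in no line of the lists. Cells were purified from C57BL/6 wild-type mice and from Scml2 knockout (KO) mice of the same strain, which lack a Polycomb-related protein of the male germ line. Thy1+ spermatogonia (Thy1) and c-Kit+ spermatogonia (cKit), the earlier and the later of the collected spermatogonial fractions, were taken at postnatal day 7, and pachytene spermatocytes (PS) and round spermatids (RS) in adults. Each of the 8 combinations of stage and genotype had 2 libraries, numbered as replicates 1 and 2, so that 16 lists entered. How the KO allele was made is not given in the sources used here. The labels do not say whether the replicates of a group are different animals, and the tests count libraries, whose differences within a group could be technical. Stage and age cannot be told apart between the spermatogonia and the adult cells, and in bulk samples fewer cells of a type and less signal per cell cannot be told apart. The cells per reaction also differed, with 500000 for Thy1 and cKit, 250000 for PS and 1000000 for RS. Except between Thy1 and cKit, stage and cells per reaction therefore cannot be told apart either.

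The sperm tail beats by means of an axoneme, a ring of doublet microtubules around a central pair of single microtubules. Dynein arms on the doublets are the motors, radial spokes carry signals from the central pair to the arms, and a ruler and a nexin-dynein regulatory complex set their spacing and limit sliding. The motile cilia of airway, ependyma and oviduct are built on the same plan, and several axonemal proteins have a paralogue used in sperm and another used in cilia. In the mouse testis the tail is assembled in spermatids, after meiosis, while spermatogonia carry no flagellum.

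A peak that shared at least 1 bp with the 1000 bp on either side of a TSS is called a promoter peak, and a gene with such a peak is called open in that list. The 250 bases upstream of the TSS are shown for 9 of the genes that the results describe. At Dnah17 the strongest peak of each open list lay outside the bases shown. They come from the RefSeq promoter table of GRCm38.p6, the build called mm10 in the submitters' processing notes. Ttll8 (chr15:88954419-88954668, minus strand), Dnah10 (chr5:124724835-124725084, plus strand), Dnah17 (chr11:118129220-118129469, minus strand) and Ropn1 (chr16:34650961-34651210, plus strand) had promoter peaks mainly or exclusively in the adult cells. Spag16 (chr1:69826720-69826969, plus strand) was open in most lists of both classes, and its peak ranked higher within every adult list than within any spermatogonial list. Ropn1l (chr15:31453690-31453939, minus strand) and Ccdc113 (chr8:95533850-95534099, plus strand) were open in all 16 lists. Tekt1 (chr11:72361883-72362132, minus strand) holds a pair of GTTGCC matches in inverted order, and Dnah5 (chr15:28203516-28203765, plus strand) was open in no list. The sequences run 5′ to 3′ on the strand of the gene and end at the base before the RefSeq TSS. Capitals mark matches on either strand to GTTGCC, a single arm of the X-box bound by RFX factors, to CAACTG, the core bound by MYB factors, and to TGACGT, a single arm of the cAMP response element. Where a GTTGCC and a CAACTG match share letters, or TGACGT overlaps its own reverse complement, the capitals run on.
Ttll8: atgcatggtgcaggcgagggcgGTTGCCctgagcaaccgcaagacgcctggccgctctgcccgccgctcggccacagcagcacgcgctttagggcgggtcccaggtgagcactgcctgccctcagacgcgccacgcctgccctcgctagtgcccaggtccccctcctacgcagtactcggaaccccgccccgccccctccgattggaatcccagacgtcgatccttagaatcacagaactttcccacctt
Dnah10: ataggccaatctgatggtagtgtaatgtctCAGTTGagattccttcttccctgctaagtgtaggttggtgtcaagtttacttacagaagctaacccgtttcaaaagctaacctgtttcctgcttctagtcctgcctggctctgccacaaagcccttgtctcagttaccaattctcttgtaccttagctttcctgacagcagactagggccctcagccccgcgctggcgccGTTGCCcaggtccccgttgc
Dnah17: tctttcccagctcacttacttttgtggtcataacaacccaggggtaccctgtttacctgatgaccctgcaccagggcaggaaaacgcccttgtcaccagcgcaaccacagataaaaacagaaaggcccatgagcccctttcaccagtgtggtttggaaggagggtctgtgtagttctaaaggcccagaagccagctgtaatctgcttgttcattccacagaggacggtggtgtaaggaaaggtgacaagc
Ropn1: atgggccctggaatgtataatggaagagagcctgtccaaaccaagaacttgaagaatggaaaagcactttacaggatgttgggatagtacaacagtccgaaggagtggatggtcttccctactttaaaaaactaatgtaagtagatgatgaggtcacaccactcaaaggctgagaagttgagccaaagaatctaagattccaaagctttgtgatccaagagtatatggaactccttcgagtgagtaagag
Spag16: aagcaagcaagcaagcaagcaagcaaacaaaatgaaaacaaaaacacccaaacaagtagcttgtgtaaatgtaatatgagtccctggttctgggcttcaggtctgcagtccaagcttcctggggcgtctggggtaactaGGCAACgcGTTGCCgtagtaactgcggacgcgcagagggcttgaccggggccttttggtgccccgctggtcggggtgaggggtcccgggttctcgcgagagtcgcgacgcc
Ropn1l: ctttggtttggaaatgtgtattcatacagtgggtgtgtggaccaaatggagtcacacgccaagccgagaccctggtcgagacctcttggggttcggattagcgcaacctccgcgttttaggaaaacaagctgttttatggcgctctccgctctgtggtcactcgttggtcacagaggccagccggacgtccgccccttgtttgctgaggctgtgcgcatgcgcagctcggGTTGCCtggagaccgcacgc
Ccdc113: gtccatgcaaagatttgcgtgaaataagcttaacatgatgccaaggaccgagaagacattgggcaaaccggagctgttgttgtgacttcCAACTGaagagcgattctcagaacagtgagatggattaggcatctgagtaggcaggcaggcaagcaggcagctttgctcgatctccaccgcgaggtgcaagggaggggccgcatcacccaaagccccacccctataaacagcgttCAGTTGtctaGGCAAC
Tekt1: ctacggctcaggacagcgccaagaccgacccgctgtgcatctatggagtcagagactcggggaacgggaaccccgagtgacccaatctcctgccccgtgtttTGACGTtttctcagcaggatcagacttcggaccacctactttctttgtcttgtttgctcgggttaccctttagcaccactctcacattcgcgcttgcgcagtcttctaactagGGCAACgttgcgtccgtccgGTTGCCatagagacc
Dnah5: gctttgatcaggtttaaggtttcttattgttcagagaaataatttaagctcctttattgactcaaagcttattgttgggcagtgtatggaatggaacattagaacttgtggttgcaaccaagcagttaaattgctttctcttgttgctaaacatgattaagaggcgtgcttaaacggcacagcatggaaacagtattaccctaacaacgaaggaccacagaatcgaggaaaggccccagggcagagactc

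Across the members with a promoter window, matches were frequent for GTTGCC and for the MYB core. RefSeq gave a window from 250 bases before to 50 bases after the TSS for 32 of the 37 members (not for Rsph1, Rsph4a, Tekt2, Foxj1 and Cetn1) and for 13801 genes in all. GTTGCC was found on either strand in 11 of 32 members (34.4%) and in 12.6% of all windows, and CAACTG in 8 (25%) and 12.2%. The looser MYB pattern AACNGNC was found in 18 members (56.3%) and in 33.05% of all windows, and it can overlap matches of the MYB core and of the X-box arm. The arm of the cAMP response element, TGACGT, was found in 4 members (12.5%, against 9.51% of all windows), the forkhead pattern TGTTTAC in 2 (6.25%, 2.80%), CCAAT in 13 (40.6%, 38.3%) and the E-box CACGTG in 2 (6.25%, 8.61%). GTTGCC followed within 14 bases by its reverse complement was in 0 members and in 0.188% of all windows. In Dnah10 and in Ropn1l, GTTGCC lay at −20 to −15 from the TSS, in Ttll8 at −228 to −223. Spag16 held GGCAAC at −111 to −106 and GTTGCC at −103 to −98, in the opposite order to the searched pair, and Tekt1 held them at −35 to −30 and −15 to −10. A match describes letters only and is not shown to be bound, and the absence of a match says nothing about a factor.

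The lists held 17813 (cKit KO replicate 2) to 164060 peaks (RS KO replicate 1), and the number of reads behind them is unknown. Replicate numbers follow the sample titles. The names of the deposited lists carry other numbers in all 16 cases, namely 2 for replicate 1, and for replicate 2 the number 1 in spermatogonia and 3 in adult cells. By the titles, replicate 1 was longer than replicate 2 in all 8 groups. A list without a peak at a promoter says that none passed the authors' threshold there, not that the chromatin was closed. The fold enrichment of a peak is the authors' value, a ratio to a background that differs between lists, and it describes and ranks peaks within a list. Where a member is set side by side across lists, its percentile of fold among all promoter peaks of the same list is given, as a description, since lists of different length do not rank alike. Pachytene markers had promoter peaks for 96.9% ± 6.25 (SD, n = 4) of 8 genes in PS, and round spermatid markers for 100% of 8 genes in each RS library and 87.5% ± 14.4 (n = 4) in PS. The pachytene markers were also open at 50% in Thy1, 37.5% in cKit and 90.6% in RS. The round spermatid markers were open at 25% in Thy1 and in cKit. In Thy1, cKit, PS and RS, the 9 stem and progenitor genes were open at 91.7%, 55.6%, 44.4% and 55.6%. The 6 genes of differentiating spermatogonia were open at 62.5%, 66.7%, 75% and 79.2%, and so were not highest in spermatogonia. Of markers of other testis cells, the 8 Sertoli genes were open at 90.6% ± 6.25 in Thy1, 78.1% ± 29.5 in cKit, 18.8% ± 16.1 in PS and 40.6% ± 21.3 in RS (SD, n = 4 each). In the same order of stages, the 5 peritubular genes were open at 90%, 75%, 35% and 35%, and the 5 endothelial genes at 60%, 50%, 0% and 15%. The 4 immune genes were open at 56.3%, 37.5%, 6.25% and 12.5%, and the 5 Leydig genes at 30%, 25%, 5% and 0%. The 9 genes of somatic multiciliated cells were open at 58.3%, 38.9%, 52.8% and 55.6% in Thy1, cKit, PS and RS. Of these, Ccno, Foxj1, Mcidas, Trp73 and Muc1 were open in 12 or more lists, Gmnc in 3, Cdhr3 in 2, and Scgb1a1 and Sntn in 0.

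More adult than spermatogonial lists were open at 19 of the 37 axoneme genes (51.4%) and fewer at 5 (13.5%), whereas among all genes 16.1% had more and 27.003% fewer. In 7 or 8 of the 8 spermatogonial lists 19 members (51.4%) were open, against 59% of all genes, and in 7 or 8 of the 8 adult lists 23 (62.2%), against 49.7%. Of the 37, 8 (21.6%, against 39.1% of all genes) were open in all 16 lists, namely the dynein heavy chains Dnah6 and Dnah7a, the intermediate chain Dnaic1, the light chains Dnali1 and Dnal4, the spoke head gene Rsph9, the ropporin-like Ropn1l and Ccdc113. Only Dnah5 was open in 0 lists. All 4 lists of a stage were open at 22 members in Thy1, 11 in cKit, 26 in PS and 21 in RS, against 64.1%, 49.5%, 50.6% and 47.9% of all genes. All 8 spermatogonial lists were open at 11 members (29.7%, against 49.3% of all genes) and all 8 adult lists at 19 (51.4%, against 44.4%). Where a promoter peak existed, its strongest summit lay within 250 bp of the TSS in 84.1% of the 439 pairs of a member and a list, against 75.9% over all genes. The median peak length was 531 bp, against 732 bp over all genes. By role, the regulator, glycylase and centrin genes (Foxj1, Ttll8 and Cetn1) had a peak in 41.7% of their pairs of gene and list in Thy1, 25% in cKit, 100% in PS and 75% in RS. The 4 central pair genes had 87.5%, 50%, 100% and 81.3%, and the intermediate and light chains of the dynein arms 100%, 95%, 100% and 85%. The radial spoke genes had 93.8%, 87.5%, 81.3% and 75%. Of these only Rsph4a was open in fewer adult (3) than spermatogonial (8) lists, whereas Rsph6a and Rsph9 were open in equal numbers and Rsph1 in more adult lists. Outer arm heavy chains had 40%, 35%, 65% and 40%, inner arm heavy chains 70%, 50%, 75% and 75%, and the ropporins 50%, 50%, 75% and 87.5%. Tektins had 85%, 60%, 85% and 85%, and the ruler and nexin-dynein genes 93.8%, 68.8%, 93.8% and 87.5%.

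**Figure D1:**
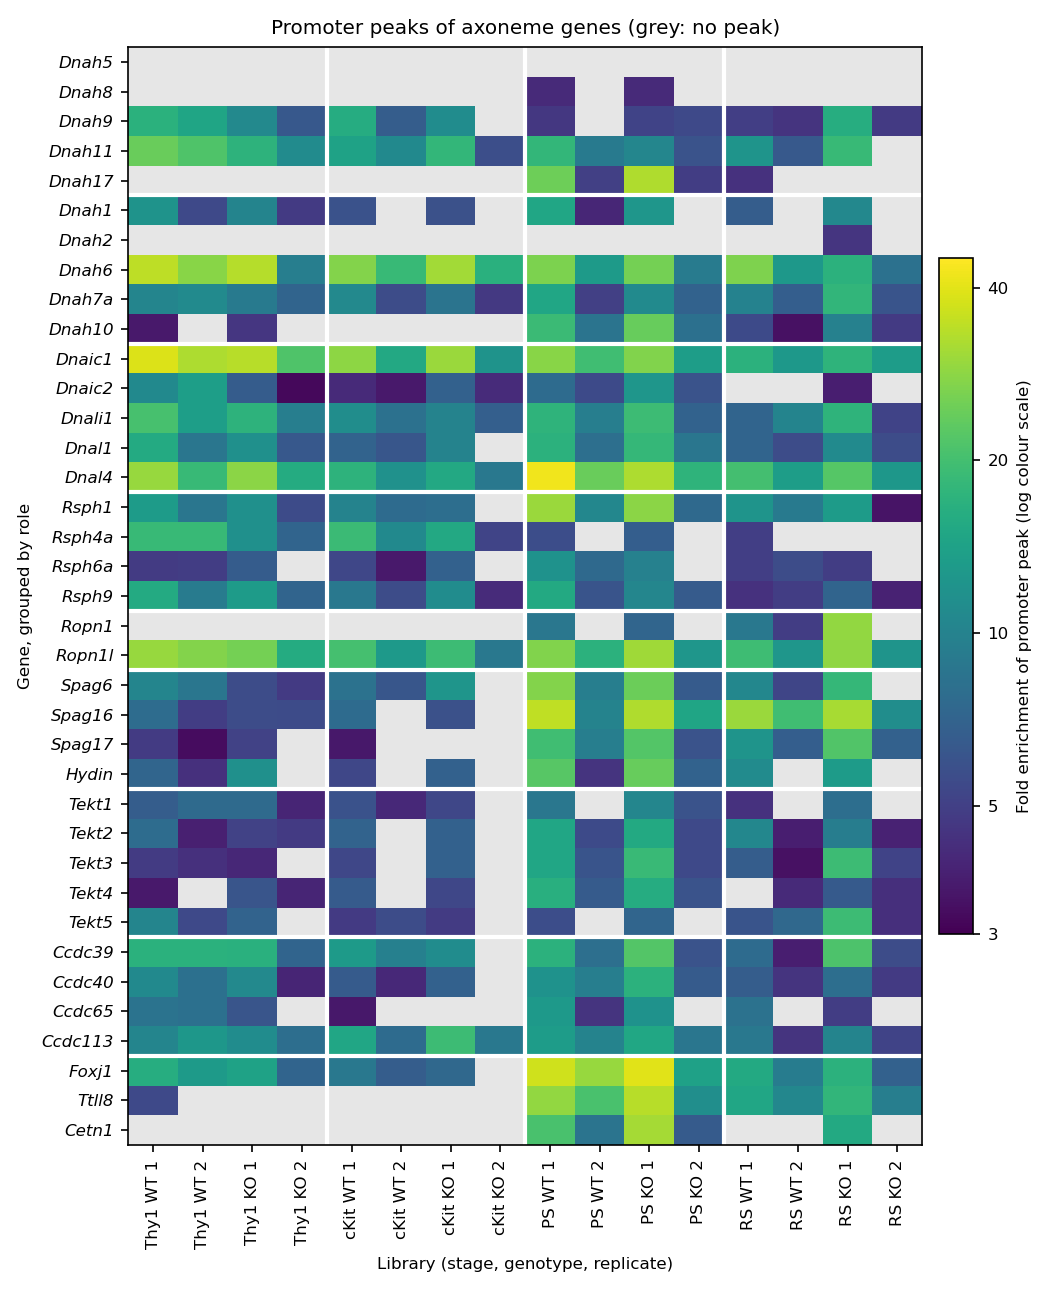
Fold enrichment of the strongest promoter peak (colour, log scale) of each of the 37 genes (rows, grouped by role) in each of the 16 libraries (columns, by stage, genotype and replicate), with grey for no peak. Dnah17, Ropn1 and Cetn1 are grey in all 8 spermatogonial libraries, Dnah5 is grey throughout, and the column of cKit KO replicate 2 has a colour at 11 of 37 genes.

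Ttll8 and Dnah10 had promoter peaks in more adult than spermatogonial lists, with an adjusted p under 0.05 by Fisher's exact test on counts of open lists. Ttll8 encodes a tubulin glycylase that adds glycines to axonemal tubulin (chromosome 15, TSS at 88954418, minus strand). Its PS fold enrichments were 28.9 and 20.6 (wild type) and 33.8 and 11.4 (KO), and its RS values 14.95 and 10.5 (wild type) and 17.8 and 9.53 (KO). Among the spermatogonial lists only Thy1 wild type replicate 1 had a peak, at 5.43. All 8 adult lists were therefore open, against 1 of 8 (adjusted p = 0.00876, Fisher's exact test over all genes). Dnah10, an inner arm heavy chain (chromosome 5, TSS at 124725085, plus strand), had PS values of 19.1 and 8.54 (wild type) and 23.9 and 8.15 (KO), and RS values of 5.54 and 3.38 (wild type) and 9.84 and 4.76 (KO). In spermatogonia it had a peak only in replicate 1 of Thy1 wild type (3.62) and of Thy1 KO (4.59). It was open in 8 of 8 adult and 2 of 8 spermatogonial lists (adjusted p = 0.0246, Fisher's exact test). The peak stood at percentiles of 1.94 and 5.81 within the Thy1 lists and 34.2 to 68.8 within the PS lists. Within the RS lists it stood at 0.800 to 32.2, a range that overlaps that of Thy1.

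Of the 37 members, 9 were open in 5 to 11 lists and could be tested, and 2 of these were called higher in adult cells and 0 higher in spermatogonia. Among all 3915 genes tested, 8.48% were called higher in adult cells and 24.7% higher in spermatogonia. No member was open in all 8 lists of one class and none of the other, which held for 2.89% (spermatogonia) and 1.46% (adult) of the genes tested. At an unadjusted p under 0.05 by Fisher's exact test, 5 members were higher in adult cells and 1 in spermatogonia, against 14.6% and 41.7% of all genes tested. The 4 members that reached this level without passing the adjustment were Dnah17, Ropn1 and Cetn1 (each 5 of 8 adult and 0 of 8 spermatogonial lists) and Rsph4a (3 and 8), each with p = 0.0256 and adjusted p = 0.0545 by Fisher's exact test. Single lists moved these calls. Without cKit wild type replicate 2 or without cKit KO replicate 2 all 4 passed (adjusted p = 0.0491 and 0.0410, Fisher's exact test), which gave 5 members higher in adult cells and 1 in spermatogonia. Without RS wild type replicate 2 the count higher in adult cells was 4 (Dnah17 and Cetn1 added), and without RS KO replicate 2 it was 5 (Dnah17, Ropn1 and Cetn1 added). It was 3 without PS wild type replicate 2 or PS KO replicate 2 (Ropn1 added), without RS wild type replicate 1 (Cetn1) and without RS KO replicate 1 (Dnah17). Rsph4a also passed without PS wild type replicate 1, PS KO replicate 1 or RS wild type replicate 1 (adjusted p = 0.0185, 0.0191 and 0.02001, Fisher's exact test). With all genes open in 1 to 15 lists tested, the adjusted p of Dnah10 was 0.0617 by the same exact test and Ttll8 alone passed.

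**Figure D2:**
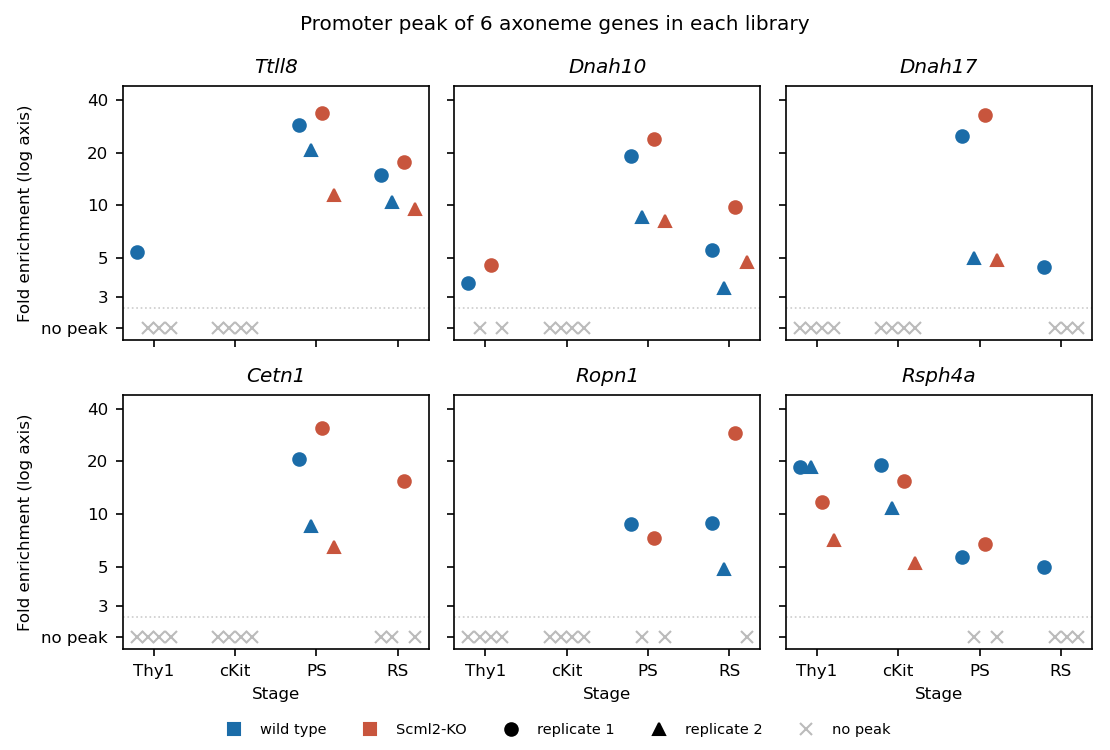
Fold enrichment of the promoter peak (log axis) of Ttll8, Dnah10, Dnah17, Cetn1, Ropn1 and Rsph4a in each library, by stage, with colour for genotype, circles and triangles for replicates 1 and 2, and grey crosses for no peak. Ttll8 and Dnah10 have a point for every adult library, and Rsph4a for every spermatogonial library and 3 adult libraries.

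Outer arm heavy chains, the main force-producing motors, differed from one another. DNAH8 and DNAH17 are the heavy chains known from the sperm outer arm, and DNAH5, DNAH9 and DNAH11 are those of motile cilia. Dnah17 (chromosome 11, TSS at 118129219, minus strand) had fold enrichments of 24.8 and 5.03 (wild type) and 32.8 and 4.89 (KO) in PS, 4.43 in RS wild type replicate 1, and no peak in the 11 other lists. All PS lists were open and no spermatogonial list was. These peaks did not share a position, since the strongest summit lay at −1497 and −1498 bp from the TSS in replicate 1 of PS wild type and KO, at −872 bp in PS KO replicate 2 and at 1238 bp in PS wild type replicate 2. With a window of 500 bp, 3 lists in place of 5 were open at Dnah17. Dnah8 (chromosome 17, TSS at 30626936, plus strand) had a peak only in PS wild type replicate 1 (4.13) and PS KO replicate 1 (4.16), which also carried the name of the divergent neighbour 1700097N02Rik, whose TSS lies 31 bp away.

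The cilium-type heavy chains Dnah9 and Dnah11 were open in spermatogonia. Dnah9 (chromosome 11, TSS at 66168551, minus strand) had values of 16.9, 14.7, 10.7 and 6.36 in Thy1, and 16.02, 6.68 and 11.2 in cKit, with no peak in cKit KO replicate 2. In PS it had 4.65, 5.20 and 5.43, with no peak in wild type replicate 2, and in RS 4.98, 4.51, 16.3 and 4.76. The RefSeq gene Gm12296, on the other strand, has its TSS 516 bp from that of Dnah9. Dnah11 (chromosome 12, TSS at 118199043, minus strand) was open in 15 of 16 lists, from 5.77 to 24.1 in spermatogonia and 5.98 to 18.5 in adult cells. Dnah5 (chromosome 15, TSS at 28203766, plus strand), the other cilium-type chain, had none. Both kinds of heavy chain thus held a gene with few or no promoter peaks, and no test was made between the kinds.

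Among the inner arm heavy chains, which shape the bend, Dnah6 and Dnah7a were open in every list, with folds from 8.23 to 34.4 and from 4.72 to 17.8. Dnah1 was open in 6 of 8 spermatogonial and 5 of 8 adult lists (adjusted p = 1, Fisher's exact test), with folds from 4.02 to 14.97, and in all 8 replicate 1 lists but 3 of replicate 2. Dnah2 had a peak only in RS KO replicate 1 (4.54). At the RefSeq TSS of Dnah12 (chromosome 14, TSS at 26691554) 0 of 16 lists had a peak, and no RefSeq TSS was found for Dnah3.

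Intermediate and light chains, which anchor and regulate the motors, were open nearly throughout. Dnaic1, an outer arm intermediate chain, had folds from 12.1 to 39.2 in all 16 lists, the Dnal4 light chain from 8.92 to 42.3, and the outer arm light chain Dnal1 from 5.63 to 18.2 in 15 lists. Dnaic2, the partner intermediate chain of Dnaic1, was open in all 12 lists of Thy1, cKit and PS (3.18 to 13.6) but in RS only in KO replicate 1 (3.78). Neighbouring genes share these promoters. Every Dnaic1 peak also carried the authors' name Fam219a, whose TSS lies 267 bp away, and Dnal4 has the RefSeq gene Gm30977 61 bp away. The signal of such pairs cannot be told apart. The strongest Dnali1 peak of every list had its summit at −1094 to −971 bp from the TSS, and with a 500 bp window 9 lists were open at Dnali1.

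Radial spoke genes differed within the head subunits. Rsph4a, a spoke head subunit needed in cilia (chromosome 10, TSS at 33905111, plus strand), had folds of 18.7, 18.5, 11.7 and 7.15 in Thy1 and 18.99, 10.8, 15.4 and 5.24 in cKit. In adult cells it had 5.68 in PS wild type replicate 1, 6.76 in PS KO replicate 1 and 4.98 in RS wild type replicate 1. All 8 spermatogonial lists were open, and the 3 adult lists were all replicate 1. The Sertoli marker genes above were open in the same direction, and their part in this difference was not tested. Rsph6a, the testis paralogue of Rsph4a (chromosome 7, TSS at 19054687, plus strand), was open in 6 spermatogonial and 6 adult lists, with 4.82, 4.91, 6.62, 5.34, 3.599 and 6.93 in the first class and 11.9, 7.54, 9.88, 4.98, 5.64 and 4.92 in the second. It was missing in replicate 2 of the KO at all 4 stages. Rsph9 was open in all 16 lists (3.90 to 15.7) and Rsph1 in 15 (3.46 to 29.9), with the 29.9 and 28.1 of PS replicate 1 at percentiles of 87.01 and 78.3 within their lists.

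The ropporins, which bind anchoring proteins of cAMP-dependent kinase at the spokes and the fibrous sheath, also split. Ropn1 (chromosome 16, TSS at 34651211, plus strand) had 8.78 and 7.28 in replicate 1 of PS wild type and KO, 8.86 and 4.88 in RS wild type and 29.1 in RS KO replicate 1, and no peak in any spermatogonial list. In RS KO replicate 1, the longest list, the peak was 3179 bp long with its strongest summit at −1368 bp, whereas the other 4 summits lay at −66 to −44 bp. Ropn1l (chromosome 15, TSS at 31453689, minus strand) was open in all 16 lists, from 8.92 to 29.5 in spermatogonia and from 12.1 to 30.7 in adult cells. The RefSeq gene Gm49208, on the other strand, has its TSS 18 bp from that of Ropn1l, and the signal of this pair cannot be told apart.

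Of the 4 central pair genes, Spag16 and Spag17 had promoter peaks of separate range in spermatogonia and adult cells, and Spag6 and Hydin did not. Spag16 (chromosome 1, TSS at 69826970, plus strand) had 7.84, 4.91, 5.60 and 5.56 in Thy1, and 7.71 and 5.86 in replicate 1 of cKit wild type and KO. In PS it had 34.6, 10.1, 32.8 and 14.7, and in RS 29.9, 19.5, 31.4 and 11.3, and these peaks stood at percentiles of 6.59 to 21.8 in the spermatogonial lists and 43.2 to 96.8 in the adult lists. Spag17 (chromosome 3, TSS at 99885417, plus strand) was open in 4 spermatogonial lists, at 4.82, 3.27, 5.09 and 3.56, and in 8 adult lists, at 19.6, 9.55, 21.8 and 5.98 in PS and 12.2, 6.76, 21.6 and 6.93 in RS. Its percentiles were 0.401 to 8.24 and 16.8 to 69.1. The gene that the authors named Spag6, on chromosome 16 (TSS at 16829363, minus strand), is called Spag6l in RefSeq. Spag6 (7 and 7 lists, 4.77 to 12.3 in spermatogonia and 5.26 to 27.4 in adult cells) and Hydin (5 and 6 lists, 4.36 to 11.7 and 4.52 to 23.9) overlapped between the classes in fold and in percentile. Because backgrounds and lengths differ between lists, these differences were not tested.

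Tektins, filament proteins of the doublet microtubules, were open in both classes of cells. Tekt3 (chromosome 11, TSS at 63061659, plus strand) had 4.82, 4.36, 4.08, 5.34 and 6.93 in 5 spermatogonial lists, and 14.97, 6.03, 18.7 and 5.43 in PS and 6.64, 3.38, 19.3 and 5.20 in RS. Tekt2 was open in 6 and 8 lists (3.82 to 7.84 and 3.76 to 15.6), Tekt4 in 5 and 7 (3.62 to 6.53 and 4.13 to 16.5), Tekt1 in 7 and 5 (3.97 to 7.64 and 4.43 to 10.4) and Tekt5 in 6 and 6 (4.75 to 10.3 and 4.33 to 19.3). Ranges of fold and of percentile overlapped for all 5, and cKit KO replicate 2 had a peak at 0 of them. The RefSeq gene Gm34317, on the other strand, has its TSS 31 bp from that of Tekt1. The ruler genes Ccdc39 and Ccdc40, which set the repeat of arms and spokes, were open in every list but cKit KO replicate 2, and Ccdc113 in all 16 (4.51 to 19.2). Every Ccdc40 peak was also named for the divergent gene Tbc1d16, whose TSS lies 73 bp away. Ccdc65 of the nexin-dynein regulatory complex was open in 4 spermatogonial and 5 adult lists (adjusted p = 1, Fisher's exact test).

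Foxj1, the transcription factor that switches on motile cilium genes in ciliated epithelia (chromosome 11, TSS at 116335354, minus strand), was open in 15 of 16 lists. Its folds were 16.3, 13.1, 14.3 and 7.15 in Thy1 and 8.90, 6.68 and 7.46 in cKit. In PS they were 37.2, 29.7, 40.03 and 14.1, and in RS 15.5, 9.39, 17.03 and 6.93. Within the 4 PS lists it stood at percentiles of 76.3 to 96.6, and within the other 11 lists with a peak at 24.4 to 66.7. Cetn1, the testis centrin of the basal body (chromosome 18, TSS at 9619469, minus strand), had PS values of 20.6 and 8.54 (wild type) and 31.2 and 6.52 (KO), and 15.5 in RS KO replicate 1. It was open in all 4 PS lists and in 1 of 4 RS lists.

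In all, PS had the highest mean share of open genes among the 37 members. The 54 further axoneme genes described below did not share this order, with 88.0% open in Thy1 and 85.2% in PS. The number of open members of 37 was 31, 28, 30 and 23 in Thy1, 29, 21, 27 and 11 in cKit, 35, 29, 35 and 28 in PS, and 31, 26, 33 and 22 in RS, in the order wild type 1 and 2, KO 1 and 2. The mean share was 75.7% ± 9.62 in Thy1, 59.5% ± 21.8 in cKit, 85.8% ± 10.2 in PS and 75.7% ± 13.4 in RS (SD, n = 4 each), beside 70.3%, 62.7%, 61.0% and 60.04% of all genes. Ranges of all 4 stages overlapped. When each list was cut to its strongest 17813 peaks by −log10 q, so that all had the length of the shortest, the counts were 14, 17, 16 and 14 in Thy1, 12, 17, 13 and 11 in cKit, 30, 26, 30 and 28 in PS, and 23, 18, 20 and 17 in RS. PS then lay above every other list, with 77.0% ± 5.18 against 41.2% ± 4.05 in Thy1, 35.8% ± 7.11 in cKit and 52.7% ± 7.15 in RS (SD, n = 4 each). All genes stood at 51.8%, 48.8%, 50.2% and 46.4% in these equal lists. The adult share exceeded the spermatogonial share by 13.2 points with the lists as deposited and by 26.4 points with equal lists. Without cKit KO replicate 2, the shortest list, the difference was 7.77 points, and in wild type alone it was 8.11 points. Among the promoter peaks of the same list, the members that had a peak stood at a median percentile of fold of 27.9 ± 2.82 in Thy1, 30.5 ± 6.99 in cKit, 42.1 ± 15.6 in PS and 35.1 ± 13.3 in RS (mean over lists ± SD, n = 4 each), which leaves out the members with none. No p is given for these shares, since the genes were chosen with earlier results of these data known.

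**Figure D3:**
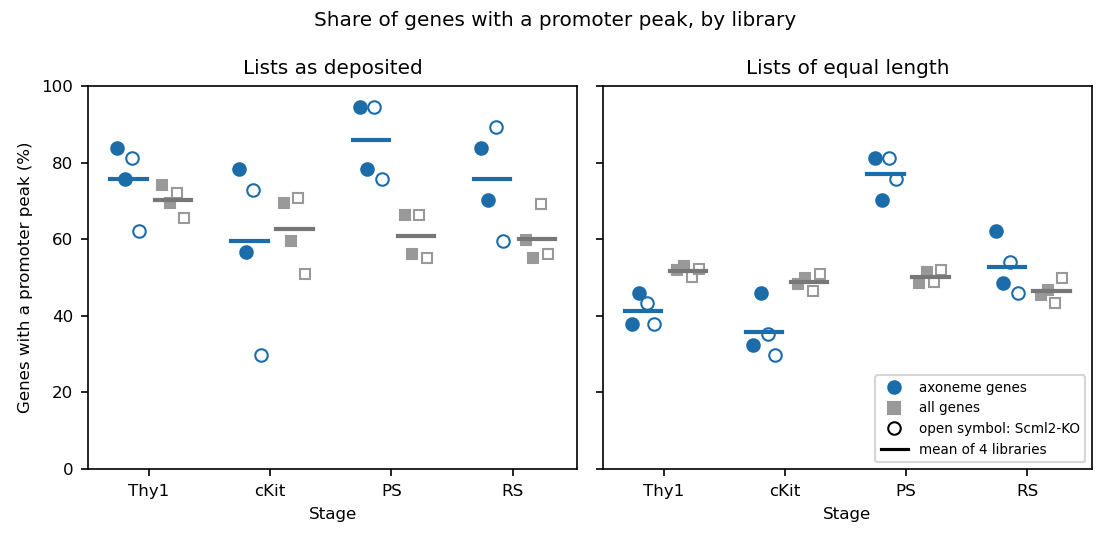
Share of genes with a promoter peak (percent, vertical axis) in each library by stage, for the 37 axoneme genes (blue circles) and all 21342 genes (grey squares), with open symbols for Scml2-KO and bars for the mean of 4 libraries, for the lists as deposited (left) and cut to equal length (right). With equal lists the 4 PS libraries sit between 70.3% and 81.1%, and all other libraries between 29.7% and 62.2%.

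With equal lists more members passed the test. Of 13 testable members, 7 were higher in adult cells, namely Ttll8, Spag16, Spag17, Tekt3, Tekt2, Dnah10 and Cetn1, against 22.6% of 3596 genes tested. Spag16, Spag17 and Ttll8 were then open in 8 adult and 0 spermatogonial lists (adjusted p = 0.00132, Fisher's exact test), Tekt3 in 7 and 0 (0.00547) and the other 3 in 5 and 0 (0.0433). Rsph4a was the only member higher in spermatogonia, in 8 and 0 lists (adjusted p = 0.00132, Fisher's exact test), against 36.6% of genes tested. Dnah5, Dnah8 and Dnah2 were open in 0 equal lists, and 5 members, Dnah6, Dnaic1, Dnali1, Dnal4 and Ropn1l, in all 16.

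Among the steps between consecutive stages, members separated at the step from cKit to PS. Dnah10, Dnah17, Ttll8 and Cetn1 were open in all 4 PS lists and in 0 of 4 cKit lists, 4 of the 5 members open in 4 of these 8 lists, and no member showed the reverse. Among all 1158 genes open in 4 of the 8 lists, 19.3% were open in all PS and no cKit lists and 24.2% the reverse. The smallest p that 4 against 4 libraries allow by Fisher's exact test is 0.0286, and the adjusted p of these 4 members was 0.0656 by this exact test. A window of 500 bp left 3 of them, without Dnah17. With equal lists 10 of 13 members showed this pattern (43.2% of 1487 genes), adding Spag16, Spag17, Tekt2, Tekt3, Tekt4 and Ccdc40, and Rsph4a showed the reverse (31.4%). From Thy1 to cKit, neither Spag17 nor Ccdc65, the members open in 4 of these 8 lists, separated the stages, against 10.8% of 472 genes for all Thy1 and no cKit lists. From PS to RS, as deposited, no member was open in exactly 4 lists, and 4.86% and 3.01% of 865 genes were separated. Of the 37 members, 12 were open in more PS than RS lists and 4 (Dnah9, Dnah2, Ropn1 and Tekt5) in fewer. Without RS KO replicate 1, Dnaic2 and Cetn1 were open in all PS and no RS lists, and without RS wild type replicate 1, Dnah17 was. With equal lists Dnah17 and Tekt4, 2 of 4 members, were open in all PS and no RS lists (31.7% of 788 genes).

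No axoneme gene passed the test between genotypes, and only 3 could be tested. Labels were permuted within each stage in an exact test of 1296 arrangements, which could reach p = 0.05 for Dnah1, Hydin and Ccdc65, and their adjusted p was 1 in each case. Of all 811 genes tested 0 passed after adjustment, with 0.986% higher in wild type and 0.74% higher in KO at an unadjusted p under 0.05 by this exact test. None of the 3 members reached that level. Taking each stage alone, no member had a peak in the pair of lists of 1 genotype and in neither list of the other, where 2 against 2 lists allow no p below 0.333 by Fisher's exact test. For all genes open in 2 of the 4 lists of a stage, the shares open in both wild-type and neither KO list were 22.1% in Thy1, 1.5% in cKit, 11.1% in PS and 5.05% in RS, and the reverse shares were 1.99%, 1.39%, 8.57% and 29.1%. Ttll8 and Dnah10 were open in all 4 adult KO lists and all 4 adult wild-type lists. More wild-type than KO lists were open at 18 members (48.6%) and fewer at 4 (10.8%), against 18.8% and 15.7% of all genes. The KO list of replicate 2 was shorter than the wild-type list of replicate 2 at every stage. In replicate 1 the KO list was longer than the wild-type list in cKit, PS and RS and shorter in Thy1. The part of list length in these counts was not tested.

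Replicate 1 lists were open at 84.8% ± 7.64 and replicate 2 lists at 63.5% ± 15.9 of the members (SD, n = 8 each), beside 68.5% and 58.5% of all genes. At 28 members (75.7%) more replicate 1 than replicate 2 lists were open, and at 0 the reverse, against 38.9% and 2.68% of all genes. Dnal1, Rsph1, Ccdc39, Ccdc40 and Foxj1 were missing in cKit KO replicate 2 alone. Within 1 replicate number, only genes open in 4 of the 8 lists were tested, which left 1 member in replicate 1 and 6 in replicate 2. With replicate 1 alone the single testable member, Ropn1, was called higher in adult cells (4 of 4 against 0 of 4 lists, adjusted p = 0.0350, Fisher's exact test). With replicate 2 alone Ttll8 and Dnah10 were in 4 of 4 against 0 of 4 lists (adjusted p = 0.0600, Fisher's exact test). Both subsets were examined after the data had been seen.

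CpG content varied widely among the promoters of members that were seldom open in spermatogonia. The ratio of observed to expected CpG in the RefSeq windows had a median of 0.623 in the 16 members open in 7 or 8 spermatogonial lists, 0.596 in the 9 open in 3 to 6, and 0.446 in the 7 open in 0 to 2. Over all genes the medians in the same classes were 0.790, 0.458 and 0.181. Ropn1 (0.145), Dnah2 (0.194) and Dnah17 (0.208) were the lowest of the last class, whereas Ttll8 (0.799), Dnah8 (0.602) and Dnah10 (0.549) lay within the range of the members open in all 16 lists, which began at 0.504. The window of Dnah17 did not overlap the strongest peak of any list there. Tekt4 (0.147) and Tekt5 (0.247) had equally few CpG and were open in 5 and 6 spermatogonial lists. Ropn1l, the open paralogue of Ropn1, had 0.874. The GC content of the members had a median of 54.7%, against 57.7% over all genes.

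**Figure D4:**
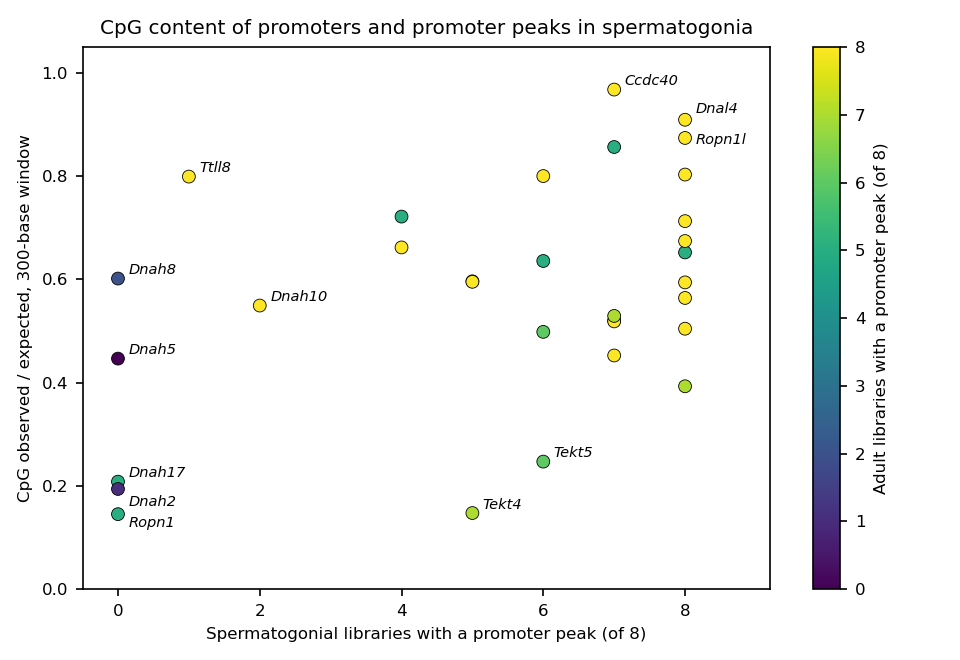
Observed over expected CpG in the 300-base RefSeq promoter window (vertical axis) against the number of spermatogonial libraries with a promoter peak (of 8) for 32 axoneme genes, coloured by the number of adult libraries with a peak. Ttll8 at 0.799 and Dnah10 at 0.549 are open in all 8 adult libraries and in 1 and 2 spermatogonial libraries, and Ropn1, Dnah2 and Dnah17 lie near the bottom left.

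Away from the TSS, the long axoneme genes held open regions of both kinds. Peaks of all lists that overlapped were merged, and 856 merged regions overlapped the transcribed spans of the 37 genes. Of these regions, 57 were open in 5 to 11 lists, and Cetn1 held none of the 856. In a test added after the data were seen, 9 of the 57 (15.8%) in 7 genes were higher in adult cells and 19 (33.3%) in 12 genes were higher in spermatogonia, against 14.5% and 46.8% of 48340 regions tested. Hydin held a region of each kind. Its region at chr8:110321488-110322580 was open in 8 spermatogonial and 0 adult lists, with folds from 4.63 to 12.7 (adjusted p = 0.00402, Fisher's exact test), and the authors placed all its peaks in introns. The region at chr8:110502333-110503440 was open in 0 and 7 lists, with folds from 3.90 to 11.4 (adjusted p = 0.00877, Fisher's exact test), in introns and exons. Dnah5, which had no promoter peak, held an intronic region open in 7 spermatogonial and 0 adult lists (chr15:28368147-28368458, adjusted p = 0.00877, Fisher's exact test) and another open in 0 and 6 (chr15:28463808-28464408, adjusted p = 0.0199). Dnah11 had 6 regions higher in spermatogonia and 1 higher in adult cells, and Dnah8 had 1 and 2. Ttll8 and Ropn1, whose promoters were open mainly in adult cells, each held an intronic region open in 5 spermatogonial and 0 adult lists (adjusted p = 0.0418, Fisher's exact test). Whether these regions act on the genes that contain them was not tested.

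Intraflagellar transport genes, which carry building blocks along a growing cilium, were open nearly throughout, at 100%, 97.3%, 99.1% and 100% of 28 genes in Thy1, cKit, PS and RS (mean over 4 lists). Genes for the fibrous sheath, outer dense fibres and other tail accessories were open at 36.1%, 30.6%, 63.9% and 80.6% of 18 genes. Of 54 further axoneme genes, 9 were testable and 0 were called in either direction, with 24 open in all 16 lists. These 54 genes were open at 88.0%, 70.8%, 85.2% and 85.2% in Thy1, cKit, PS and RS, without a maximum in PS. Of the transport genes, 26 were open in all 16 lists and 0 were testable. Of 17 genes listed under dynein assembly only 1 was testable. This gene, 1700129C05Rik, was called (0 spermatogonial and 8 adult lists, adjusted p = 0.00358, Fisher's exact test), and its function was not checked in the sources used here. Of the tail accessory genes, 4 were higher in adult cells and 0 in spermatogonia among 7 testable, against 8.48% and 24.7% of all genes tested. These were Akap3, a fibrous sheath anchoring protein, Smcp of the mitochondrial capsule and the kinase gene Tssk1 (each 6 adult and 0 spermatogonial lists, adjusted p = 0.0246, Fisher's exact test), and the outer dense fibre gene Odf1 (7 and 1 lists, adjusted p = 0.0304). Of 17 transcription factor genes of the cilium and spermatid programs only 2 were testable and 0 were called, and Rfx1, Rfx2, Rfx3, Mybl1 and Crem were open in all 16 lists.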

How the data were processed

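The members and gene lists were chosen with earlier results of these data known. Reads were aligned with Bowtie 1.1.1 and peaks called with MACS2 2.1.0.20140616 on mm10, per the submitters' processing notes, with the caller's options not given in the sources used here. The authors deposited a list per library with, per the file headers, the pileup (coverage signal at the summit), −log10 p and −log10 q, the fold enrichment (a ratio to the library's own background) and the length of each peak. The authors also named a gene and region on each line. The 16 lists held 1431525 lines, of which 576 mitochondrial ones were left out, and 1111092 peaks after lines of the same peak were joined. Per list, the smallest −log10 q was 1.30 to 2.09. TSSs (23515, for 21342 genes) were taken from the authors' lines, 1018 genes by position.

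Computed here were the presence of a promoter peak, its strongest fold and the tests, with Python 3.11.15, pandas 2.3.3 and scipy 1.17.1. Genes open in 5 to 11 of 16 lists were tested between spermatogonia and adult cells by the two-sided Fisher's exact test, with Benjamini-Hochberg adjustment over all genes tested and a threshold of 0.05. Consecutive stages were compared over genes open in 4 of 8 lists, and genotypes by a two-sided exact test within stages. The tests were tried on simulated data first. All members are described, in full those that were called or separated stages. Alternatives were the window, overlap, stricter thresholds, equal lists, 1 TSS per gene, the genes tested, each genotype alone, a replicate block and leaving out each library. Replicates 1 or 2 alone, RefSeq TSSs and regions inside genes were added after the data were seen. Without read counts, no interval for depth can be given.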

Additional observations from a re-analysis of the deposited data

Results flagged for a closer look

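In cKit KO replicate 2, the 11 members with a promoter peak stood at a median percentile of 40.4 for fold enrichment among all promoter peaks of that list, apart from the other 7 spermatogonial lists, whose values lay between 24.8 and 31.05. It was the highest of the 8 spermatogonial values, and its gap to the next exceeded the Dixon limit for 8 samples. This list is the shortest, with 17813 peaks, and 26 members have no peak in it. Over 18 groups checked, chance alone marks about 1 in 20 groups.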

How the results depend on the processing

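Ttll8 and Dnah10 passed the test between spermatogonia and adult cells under each of the 16 omissions of a library, with a 500 bp window, with the summit inside the window, with stricter peaks, with equal lists, with 1 TSS per gene, with RefSeq TSSs and with the replicate block. With all 9798 genes open in 1 to 15 lists tested, 1 member (Ttll8) was higher in adult cells, because more genes were tested. With 4 against 4 lists, only genes open in 4 of the 8 lists were tested. This left 0 testable members in wild type alone, 2 in KO alone, 1 in replicate 1 alone and 6 in replicate 2 alone. The count of members higher in adult cells was 0 in KO alone, 1 in replicate 1 alone (Ropn1) and 0 in replicate 2 alone. In wild type alone it could only be 0. Members higher in spermatogonia numbered 1 with −log10 q of 5 or more (Dnah9), 1 with fold enrichment of 5 or more (Rsph4a), 1 with equal lists (Rsph4a) and 1 with the replicate block (Rsph4a). Equal lists gave 7 members higher in adult cells, 10 open in all PS and no cKit lists, 1 the reverse, and 2 open in all PS and no RS lists. That last count was 1 (Dnaic2) with either stricter threshold. The causes were not tested. Leaving out each library gave 2 to 5 members higher in adult cells, 0 to 1 higher in spermatogonia, 4 to 5 open in all PS and no cKit lists and 0 to 2 open in all PS and no RS lists, and the share difference lay between 7.77 and 16.2 points. No result turned its direction. Of all genes, 332 higher in adult cells became 814 with equal lists, 165 with all genes tested, 170 in wild type alone, 214 with RefSeq TSSs, and 0 in KO or replicate 2 alone. Of all genes, 968 higher in spermatogonia became 460 with all genes tested, 0 in KO alone and in replicate 2 alone, and 1747 without cKit KO replicate 2.

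The labels do not say what a replicate number marks. Over 28 pairs of groups, the correlation of deviations between same-numbered libraries ran from −0.00316 to 0.424 with a median of 0.128. It was over 0 in 27 pairs and over 0.1 in 18, a hint of shared deviations from the data and not from the design, and the block was kept as an alternative. With the replicate block 3 members were higher in adult cells (Dnah10, Ropn1 and Ttll8), Ropn1 and Rsph4a had an adjusted p of 0.0359 by the blocked exact test, and 0 differed between genotypes or consecutive stages, where the smallest blocked p is 0.0556.

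The depth of reads behind each list is unknown, so that a missing peak in a short list is not evidence of closed chromatin. List length differed up to the range given above, and 2 libraries per group leave single lists able to move a call. Between spermatogonia and adult cells, stage, age and cells per reaction cannot be told apart.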
